A study of Mus musculus with 6 samples.

Results

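DNA replication is prepared in G1, when the origin recognition complex, with Cdc6 and Cdt1, loads the ring-shaped MCM2-7 helicase onto DNA, a step called licensing. In S phase the loaded helicase is joined by Cdc45 and the GINS complex to form the active CMG helicase, and clamp, clamp loader, polymerases and ligase copy the DNA behind it. Many of these genes are known targets of E2F transcription factors, which are held back by pocket proteins until cyclin-dependent kinases act, and pluripotent stem cells are known for a short G1 and high levels of licensing proteins. The genes described here are 42 DNA replication licensing and S phase genes. They were chosen by symbol for their function, with earlier results of these data known. Of these, 40 had a named probe (51 probes in all) and were measured, out of 14530 genes tested in the series. Rrm2 and Rpa1 were not analysed here.

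Gene expression was measured in cells, labelled day 3, that had been differentiated from mouse embryonic stem cells of strain 129/Ola in serum-free N2B27 medium. One group had been treated for 24 h with TSA (trichostatin A), which inhibits histone deacetylases, and the other for 24 h with the solvent DMSO. No label states how much TSA was used, or names an allele or a transgene. Each group had 3 samples, labelled as independent experiments, and each sample was hybridised to 1 single-colour Agilent array. The arrays lay on 3 slides. On each one the TSA sample took position 4 and the DMSO sample of the same replicate number position 3, and effects of position and of treatment cannot be told apart.

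Array brightness, as the 75th percentile of processed intensity, was 670, 311 and 885 for TSA replicates 1, 2 and 3, and 632, 654 and 926 for DMSO replicates 1, 2 and 3. Of 43379 spots per array, 61.1% to 72.3% were called well above background, and saturation was found in 0. TSA replicate 2 stood apart: it correlated at 0.931 and 0.939 with the other TSA arrays, where all remaining pairs of the same treatment reached 0.984 to 0.990. Its added control RNAs had a median log2 level of 3.33 relative to its 75th percentile, against 1.40 and 1.76 on the other TSA arrays and 1.23 to 1.92 on the DMSO arrays. For this reason, differences that slide 2 moved are also given by slide or without slide 2. In cultures of mixed cells, fewer cells of a type and less RNA per cell cannot be told apart. Precision is limited by having 3 arrays per group.

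The 40 replication genes were well above background on all 6 arrays, and 37 of them had a mean level above the 75th percentile of the array. In TSA, 0 of the 40 rose and 0 fell by the test applied to the whole array (limma, Benjamini-Hochberg over the tested probes, threshold 0.05). Over all 14530 tested genes, 1.36% were called higher in TSA and 0.0551% lower, and over the 7179 genes with a mean level above the 75th percentile 0.306% and 0.0557%. At an unadjusted p under 0.05 the count was also 0 of 40, where 14.9% of all tested genes and 7.41% of those brighter genes lay below that value. With the slide as a block, 0 of 40 were called, against 3.2% of all tested genes higher and 0.145% lower, and 0 had an unadjusted p under 0.05, against 22.9%.

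The differences between TSA and DMSO were small. Throughout, a level is log2 of the processed signal minus the 75th percentile of its array, and a difference is TSA minus DMSO in log2 units, with the moderated standard error of limma (n = 3 arrays in each group). The 40 differences had a median of 0.16 and ranged from -0.63 for Pola1 to 0.52 for Ccne1, against a median of 0.08 over all tested genes. A mean that was higher in TSA was found for 24 genes (60%, against 58.1% of all tested genes) and a lower one for 16 (40%, against 41.9%). None of the 40 differed by 1 log2 unit or more, as 10.3% of all tested genes and 3.77% of those with a mean level above the 75th percentile did. For 30 of the 40 the whole 95% interval of the difference lay within 1 log2 unit of 0, that is, under a doubling or halving (75%, against 47.5% of all tested genes and 62.7% of those above the 75th percentile). These intervals, not adjusted for the number of tests and without the slide block, reached from 0.46 to 1.19 log2 units to either side of the difference. With the slide block, 35 of the 40 intervals lay within 1 log2 unit of 0 (87.5%, against 8864 of 14530 tested genes). Small changes may have been missed, since intervals from 3 arrays in each group were wide. Each of the 40 held 0, without and with the slide block.

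**Figure D1:**
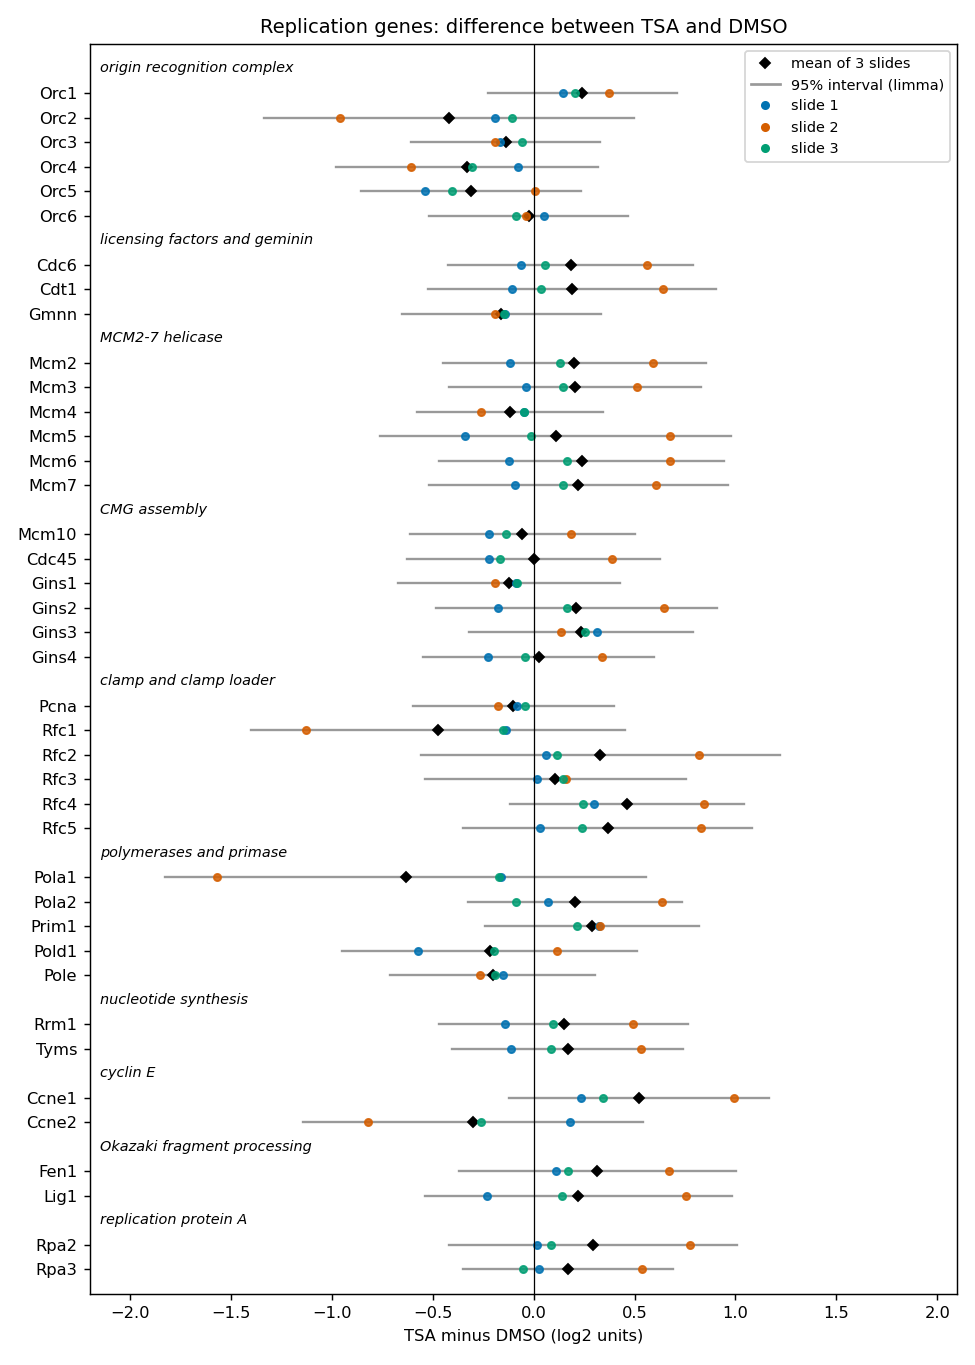
TSA minus DMSO difference in log2 units (horizontal axis) for the 40 measured replication genes, grouped by role. Diamonds are the mean over 3 slides, lines the 95% interval from limma, and coloured points the differences on slides 1, 2 and 3; every interval crosses 0, and the slide 2 point is the farthest from 0 for 35 of the 40 genes.

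The origin recognition complex marks the sites at which helicase is loaded. Orc1, the ATPase subunit whose level is regulated through the cell cycle, had levels of 0.35, 0.45 and 0.58 on TSA arrays 1, 2 and 3, and 0.21, 0.08 and 0.38 on DMSO arrays 1, 2 and 3. It was higher in TSA on all 3 slides, but TSA replicate 1 lay below DMSO replicate 3, and the difference of 0.24 ± 0.20 did not pass (limma, Benjamini-Hochberg adjusted p = 0.667). Orc2, a core subunit, had levels of 2.60, 1.26 and 2.31 in TSA and 2.79, 2.22 and 2.42 in DMSO. TSA replicate 2 was the lowest of the 6 arrays and the groups overlapped through TSA replicates 1 and 3, with a difference of -0.42 ± 0.38 (adjusted p = 0.690) that shrank to -0.15 without slide 2. Orc5, another core subunit, had levels of 0.28, 0.27 and 0.03 in TSA and 0.82, 0.27 and 0.43 in DMSO. Here slides 1 and 3 carried the difference of -0.31 ± 0.23 (adjusted p = 0.642), which was -0.47 without slide 2, and the slide 2 arrays were equal to 2 decimals. Orc3, Orc4 and Orc6 had differences of -0.14, -0.33 and -0.02, or -0.11, -0.19 and -0.02 without slide 2. The 6 subunits had a median difference of -0.23 (-0.13 without slide 2), with 5 of 6 lower on average in TSA and Orc1 higher, and 0 past the test.

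Cdc6 and Cdt1 load the helicase, and geminin, the product of Gmnn, binds Cdt1 and blocks reloading after S phase has begun. Cdt1 had levels of 5.25, 6.05 and 5.12 on the TSA arrays and 5.36, 5.41 and 5.09 on the DMSO arrays. TSA replicate 2 stood above the other 5 arrays, which overlapped, and the difference was 0.19 ± 0.30 (limma, adjusted p = 0.808), or -0.04 without slide 2. Gmnn had levels of 5.29, 4.96 and 5.05 in TSA and 5.44, 5.15 and 5.20 in DMSO. It was lower in TSA by nearly the same amount on each slide, -0.14, -0.19 and -0.15, while the groups overlapped because both arrays of slide 1 were higher than those of the other slides. Its difference was -0.16 ± 0.21 (adjusted p = 0.770), and the slide block did not bring it past the threshold (adjusted p = 0.609). Cdc6, measured at 1.59, 2.29 and 1.62 in TSA and 1.65, 1.73 and 1.56 in DMSO, had a difference of 0.18 at its brighter probe, which was 0.00 without slide 2, and 0.47 at its other probe. The gap between the probes was the largest gap among the 9 replication genes with several tested probes, and in 0 of the 9 did probes point in opposite directions.

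The 6 subunits of the MCM2-7 helicase form 1 ring in equal numbers. Mcm2 had levels of 4.18, 4.95 and 4.22 in TSA and 4.29, 4.37 and 4.08 in DMSO. Mcm3 had levels of 3.26, 3.89 and 3.18 in TSA and 3.30, 3.38 and 3.04 in DMSO. In both genes TSA replicate 2 was the highest of the 6 arrays and the other 5 overlapped. Mcm5 had levels of 4.84, 5.93 and 4.75 in TSA and 5.18, 5.26 and 4.77 in DMSO, so that, apart from replicate 2, both TSA arrays lay below the DMSO arrays of their slides. Mcm6 had levels of 6.73, 7.49 and 6.61 in TSA and 6.86, 6.82 and 6.45 in DMSO. Mcm7 had levels of 6.02, 6.82 and 5.88 in TSA and 6.12, 6.22 and 5.74 in DMSO. In these genes too TSA replicate 2 was the highest of the 6 arrays. Mcm4 was the exception, with levels of 5.70, 5.45 and 5.50 in TSA and 5.74, 5.71 and 5.55 in DMSO, TSA replicate 2 being the lowest array.

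None of the 6 differences passed the test. They were 0.20 ± 0.27 for Mcm2, 0.21 ± 0.26 for Mcm3, -0.12 ± 0.19 for Mcm4, 0.11 ± 0.36 for Mcm5, 0.24 ± 0.30 for Mcm6 and 0.22 ± 0.31 for Mcm7, with adjusted p between 0.762 and 0.913 (limma, Benjamini-Hochberg). All 6 intervals lay within 1 log2 unit of 0, the widest, for Mcm5, running from -0.76 to 0.98. On slide 1 all 6 genes were lower in TSA, by -0.34 for Mcm5 and by -0.04 to -0.12 for the others. On slide 2 Mcm2, Mcm3, Mcm5, Mcm6 and Mcm7 were higher by 0.51 to 0.68 and Mcm4 was lower at -0.26, and on slide 3 all 6 lay between -0.05 and 0.16. The positive mean of those 5 genes came mainly from slide 2. Without slide 2 the differences of Mcm2, Mcm3, Mcm5, Mcm6 and Mcm7 were 0.01, 0.05, -0.18, 0.02 and 0.03. With TSA replicate 2 alone left out, which keeps the DMSO array of its slide, they were -0.05, -0.02, -0.27, -0.04 and -0.07. In the authors' deposited table, which is scaled differently, Mcm5 alone of the 6 changed sign, to -0.03.

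**Figure D2:**
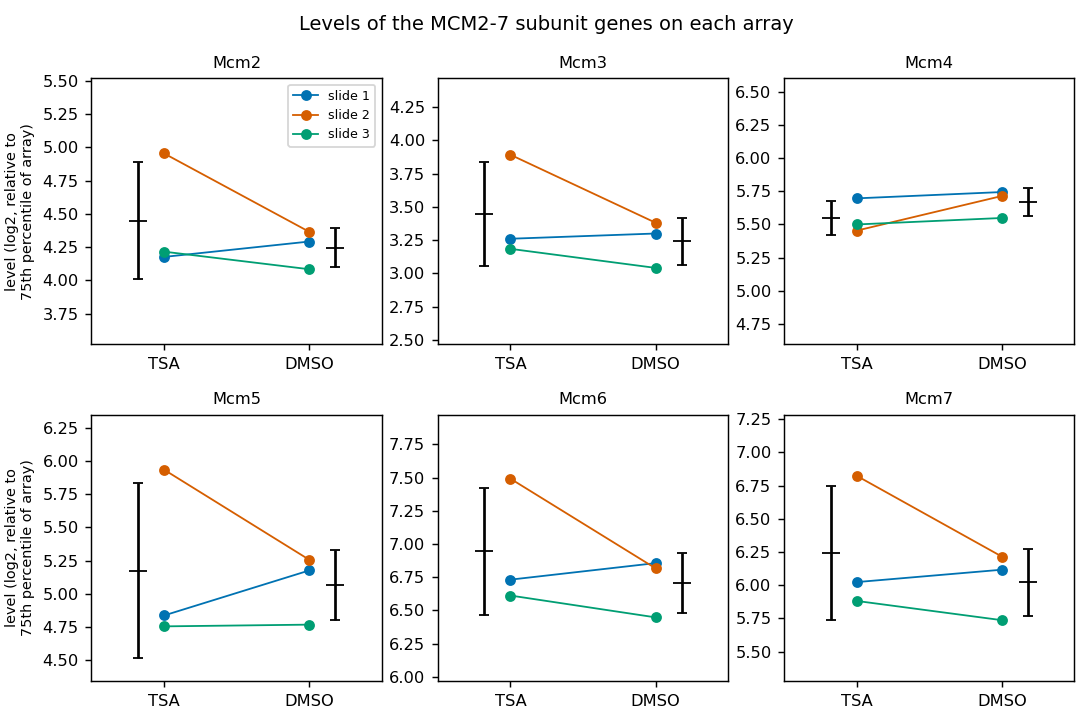
Levels of the 6 MCM2-7 subunit genes on each array, in log2 units relative to the array's 75th percentile (vertical axis, of equal length but different position in each panel), TSA left and DMSO right. Lines join the arrays of a slide and black bars are the mean and SD of 3 arrays; TSA replicate 2 is the highest array for 5 genes and the lowest for Mcm4.

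Because E2F factors are known regulators of many of these promoters, the promoter windows of the replication genes were searched for E2F-type sequence, and 6 stretches are shown for genes described in this account. RefSeq windows of GRCm38.p6, running from 250 bases before to 50 bases after a gene's start, were given for 34 of the 42 genes. The capitals mark matches, on either strand, to TTTCCCGC, TTTGGCGC, TTTCGCGC or TTTGCCGC, and in Mcm5 and Mcm6 the capitals hold 2 overlapping matches on opposite strands. Each stretch has 60 bases and is written 5′ to 3′ on the strand of the gene.
Mcm5, chr8:75109330-75109389, plus strand: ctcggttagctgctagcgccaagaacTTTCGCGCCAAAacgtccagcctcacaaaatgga
Mcm6, chr1:128359782-128359841, minus strand: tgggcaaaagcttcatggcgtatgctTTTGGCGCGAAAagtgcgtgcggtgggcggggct
Mcm7, chr5:138172015-138172074, minus strand: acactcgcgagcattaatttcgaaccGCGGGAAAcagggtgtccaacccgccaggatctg
Cdc6, chr11:98907987-98908046, plus strand: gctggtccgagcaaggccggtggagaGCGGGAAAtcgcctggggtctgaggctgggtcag
Orc1, chr4:108579394-108579453, plus strand: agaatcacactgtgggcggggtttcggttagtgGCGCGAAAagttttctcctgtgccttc
Pola1, chrX:93632260-93632319, minus strand: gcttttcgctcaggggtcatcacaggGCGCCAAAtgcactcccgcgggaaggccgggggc

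At least 1 such match was found in 13 of the 34 replication gene promoters (38.2%), against 4.34% of the 11545 tested genes with a window and 2.6% of all 27025 genes with one. The median GC content of the replication gene windows was 61.8%, against 60.3% for tested genes and 52.7% for all genes. The other promoters with a match were those of Mcm3, Orc3, Rfc3, Lig1, Pold1, Gins3 and Cdt1. The 13 genes with a match had a median TSA minus DMSO difference of 0.19 log2 units and a range from -0.63 to 0.24, and the 19 measured genes whose window held none had a median of 0.17 and a range from -0.47 to 0.52. On slide 2 alone the medians were 0.51 and 0.49. The differences of genes with and without a match overlapped. A match is a description of the letters in the window and shows no binding.

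The genes that turn the loaded ring into the active CMG helicase had a median difference of 0.01, or -0.11 without slide 2. Gins1, a subunit of the GINS complex, had levels of 2.99, 2.65 and 2.55 in TSA and 3.08, 2.84 and 2.63 in DMSO. The TSA array was the lower of its slide each time, the groups overlapped, and the difference was -0.12 ± 0.23 (limma, adjusted p = 0.842). Gins3, a second subunit of the same complex, had levels of 1.05, 0.50 and 0.74 in TSA and 0.74, 0.37 and 0.49 in DMSO. It was higher in TSA by 0.31, 0.14 and 0.26 on slides 1, 2 and 3, with TSA replicate 2 inside the range of the DMSO arrays, and the difference of 0.23 ± 0.23 did not pass (adjusted p = 0.708). The differences of Gins2, Gins4, Mcm10, a factor needed for helicase activation, and Cdc45 were 0.21, 0.02, -0.06 and 0.00. Without slide 2 they were -0.01, -0.13, -0.18 and -0.20, and that of Gins4 turned slightly negative under 4 other scalings of the arrays.

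At the fork, replication factor C opens the sliding clamp PCNA and places it on DNA. Rfc4, a small subunit of this loader, had levels of 4.57, 5.03 and 4.33 in TSA and 4.27, 4.19 and 4.08 in DMSO. It was 1 of 2 replication genes whose TSA arrays all lay above all DMSO arrays, as 16.4% of all tested genes and 9.82% of those with a mean level above the 75th percentile did, and 0 lay wholly below, against 8.29% of all tested genes and 9.93% of the brighter ones. Its difference was 0.46 ± 0.24, a 1.38-fold higher signal with a 95% interval from -0.12 to 1.04, and did not pass (limma, adjusted p = 0.536); without slide 2 it was 0.27. Rfc1, the large subunit, had levels of 4.43, 3.05 and 4.22 in TSA and 4.57, 4.18 and 4.37 in DMSO. TSA replicate 2 was the lowest of the 6 arrays by over 1 log2 unit, and the difference of -0.47 ± 0.39 (adjusted p = 0.668) became -0.14 without slide 2. Rfc2, Rfc3 and Rfc5 had differences of 0.33, 0.11 and 0.37, which were 0.09, 0.08 and 0.14 without slide 2, so the loader genes pointed in both directions. Pcna itself had levels of 6.15, 5.77 and 5.98 in TSA and 6.24, 5.95 and 6.02 in DMSO, a difference of -0.10 with overlapping groups.

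Polymerase alpha and primase start each DNA strand, and polymerases delta and epsilon extend it. Pola1, the catalytic subunit of polymerase alpha, had levels of 2.55, 0.65 and 2.18 in TSA and 2.71, 2.22 and 2.35 in DMSO. TSA replicate 2 alone stood far below the other 5 arrays: the difference was -0.16 on slide 1, -1.57 on slide 2 and -0.17 on slide 3. Its mean, -0.63 ± 0.50, had the widest interval of the 40 genes, from -1.83 to 0.56 (limma, adjusted p = 0.660). Prim1, the catalytic subunit of primase, had levels of 4.64, 4.37 and 4.17 in TSA and 4.32, 4.04 and 3.96 in DMSO. It was higher in TSA by 0.32, 0.33 and 0.22 on slides 1, 2 and 3, an even spread that slide 2 did not set, while the groups overlapped and the difference of 0.29 ± 0.22 did not pass (adjusted p = 0.655). Pola2, the second subunit of polymerase alpha, had a difference of 0.21, and Pold1 and Pole, the catalytic subunits of polymerases delta and epsilon, had -0.22 and -0.20. Without slide 2 these were -0.01, -0.39 and -0.17.

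Nucleotide supply was represented by 2 measured genes. Rrm1, the large subunit of ribonucleotide reductase, had levels of 4.48, 5.21 and 4.57 in TSA and 4.62, 4.72 and 4.47 in DMSO. Tyms, which makes thymidylate, had levels of 4.73, 5.24 and 4.64 in TSA and 4.84, 4.71 and 4.55 in DMSO. In both genes TSA replicate 2 was the highest array and the others overlapped. The differences were 0.15 ± 0.26 for Rrm1 and 0.17 ± 0.24 for Tyms (limma, adjusted p = 0.828 and 0.790), and without slide 2 they were -0.02 each.

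E-type cyclins activate Cdk2 at the entry to S phase. Ccne1 had levels of 5.55, 6.20 and 5.39 in TSA and 5.32, 5.21 and 5.04 in DMSO, and it was the other gene whose groups did not overlap. The TSA array was the higher on each slide, by 0.23, 0.99 and 0.34. The difference of 0.52 ± 0.27, a 1.44-fold higher signal, was the largest positive one of the 40 and had the smallest p (unadjusted p = 0.0955, limma; adjusted p = 0.528), with a 95% interval from -0.12 to 1.17. Without slide 2 it was 0.29. Ccne2, its close relative, had levels of -0.89, -2.11 and -1.13 in TSA and -1.07, -1.29 and -0.87 in DMSO. TSA replicate 2 was again the farthest array, here the lowest, and the groups overlapped. The difference of Ccne2 was -0.30 ± 0.35 (limma, adjusted p = 0.747), or -0.04 without slide 2 and 0.07 without TSA replicate 2 alone.

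Fen1 trims and Lig1 seals the Okazaki fragments of the lagging strand, and replication protein A covers the single strands exposed at the fork. Fen1 had levels of 2.52, 3.098 and 2.21 in TSA and 2.41, 2.43 and 2.04 in DMSO, higher in TSA on each slide and overlapping between groups. Lig1 had levels of 5.04, 6.05 and 5.12 in TSA and 5.27, 5.30 and 4.98 in DMSO, with TSA replicate 2 above the other 5. Their differences were 0.32 ± 0.29 and 0.22 ± 0.32 (limma, adjusted p = 0.688 and 0.792), or 0.14 and -0.05 without slide 2. Rpa2, the middle subunit of replication protein A, had levels of 1.78, 2.54 and 1.57 in TSA and 1.76, 1.76 and 1.48 in DMSO. Rpa3, the small subunit, had levels of 3.36, 3.68 and 3.15 in TSA and 3.34, 3.15 and 3.21 in DMSO. In both, TSA replicate 2 was the highest array and the TSA and DMSO arrays of the other slides lay within 0.1 log2 units of each other. The differences were 0.29 ± 0.30 for Rpa2 and 0.17 ± 0.22 for Rpa3 (adjusted p = 0.714 and 0.770), or 0.05 and -0.01 without slide 2.

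Read by slide, the replication genes lay close together on slides 1 and 3 and spread out on slide 2. On slide 1 the 40 differences had a median of -0.09 and ran from -0.57 to 0.32, on slide 2 a median of 0.38 and a range from -1.57 to 0.99, and on slide 3 a median of 0.01 and a range from -0.40 to 0.34. All tested genes had medians of -0.03, 0.31 and 0.03 on slides 1, 2 and 3. The interquartile range of the replication genes was 0.20, 0.82 and 0.26 log2 units on the 3 slides, and that of all tested genes 0.63, 1.01 and 0.46. A difference of 0.5 log2 units or more in either direction was found for 2, 23 and 0 of the 40 genes on slides 1, 2 and 3 (5%, 57.5% and 0%), and for 29.5%, 57.4% and 20.5% of all tested genes. On slides 1 and 3 the replication genes thus differed less between TSA and DMSO than the tested genes did as a whole, and on slide 2 their share was that of all genes. This comparison is a description, since the tested genes include many with low signals.

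Slide 2 gave the difference farthest from 0 for 35 of the 40 genes (87.5%, against 65.4% of all tested genes). Relative to the average of both other arrays of the same treatment, TSA replicate 2 had a median deviation of 0.57 log2 units over the 40 genes and DMSO replicate 2 one of 0.02, and over all tested genes these were 0.37 and 0.06. The low 75th percentile and high control RNAs of TSA replicate 2 moved with these values, and their part in them was not tested. Without slide 2 the 40 differences had a median of -0.02 and ran from -0.47 to 0.29, and 10 of them changed sign. With TSA replicate 2 alone left out, 16 of the 40 changed sign: Ccne2 and Orc6 became positive, and Cdc6, Cdt1, Mcm2, Mcm3, Mcm5, Mcm6, Mcm7, Gins2, Gins4, Rfc2, Rfc3, Rrm1, Tyms and Lig1 negative. On all 3 slides alike, 10 of the 40 were higher in TSA (25%, against 32.6% of all tested genes and 22.3% of those above the 75th percentile) and 10 were lower (25%, against 21.4% and 26.1%). The 10 higher genes were Orc1, Gins3, Rfc2, Rfc3, Rfc4, Rfc5, Prim1, Ccne1, Fen1 and Rpa2. The 10 lower genes were Orc2, Orc3, Orc4, Gmnn, Mcm4, Gins1, Pcna, Rfc1, Pola1 and Pole. These shares lie near those of the array as a whole.

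**Figure D3:**
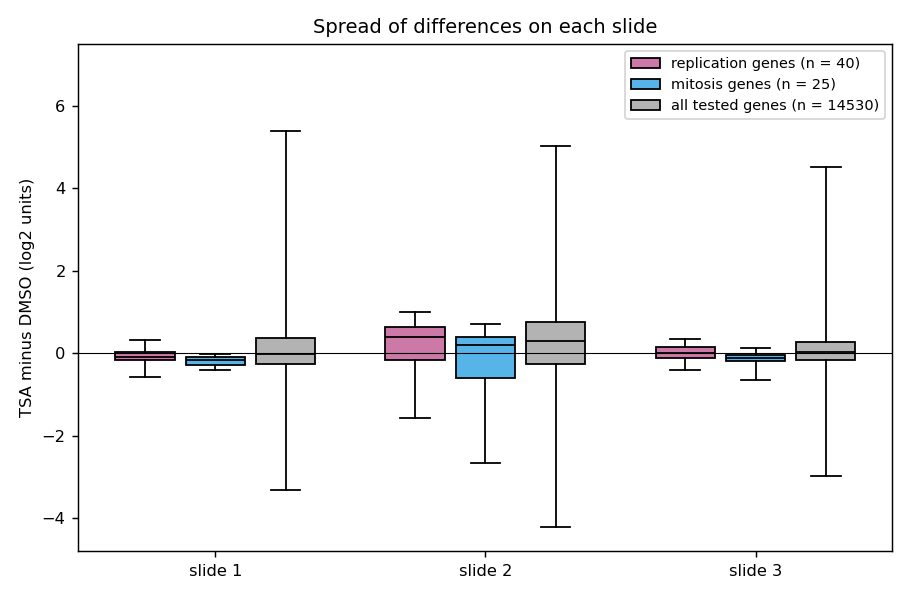
TSA minus DMSO difference in log2 units (vertical axis) within each slide for the 40 replication genes, 25 mitosis genes and all 14530 tested genes. Boxes span the quartiles with the median as a line and whiskers reach the lowest and highest gene; on slides 1 and 3 the replication genes stay between -0.57 and 0.34, and on slide 2 they spread from -1.57 to 0.99.

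Other genes of the replication pathway likewise had no call. Of 66 listed, 65 were measured: 0 rose and 0 fell in TSA, with a median difference of -0.10 and a range from -0.74 to 0.62 (limma, 0 called with the slide block as well). An unadjusted p under 0.05 was found for 2 without the block and 6 with it, against 14.9% and 22.9% of all tested genes. The 10 origin firing regulators, which include the kinases that activate the loaded helicase, had a median of -0.28. Of these, 7 were lower in TSA on all slides and 0 higher, against 21.4% and 32.6% of all tested genes. The 9 measured genes for turnover of licensing factors and cyclin E had a median of -0.23, 5 of them lower on all slides (again against 21.4%) and 0 higher. Further nucleotide supply genes (8) and chromatin assembly genes (7) had medians of 0.21 and 0.15, the 18 other fork and polymerase subunits -0.05, and the 13 E2F and pocket protein genes -0.14. Without slide 2 the medians were -0.18 for origin firing, -0.16 for turnover, 0.07 for nucleotide supply, 0.01 for chromatin assembly, -0.13 for fork and polymerase subunits and 0.04 for E2F and pocket proteins, the last with its sign turned.

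Among the proliferation lists compared, which were chosen with earlier results of these data known, the list of G1 cyclins and CDK inhibitors had the highest median. The 11 measured genes of this list, in which the G1 kinases Cdk4 and Cdk6 are counted with the cyclins and CDK inhibitors, had a median difference of 0.48 (0.36 without slide 2) and a range from -0.49 to 1.20. The list pools genes that promote entry into S phase with genes that block it. Ccnd2, Ccnd3, Cdk4 and Cdk6 had differences of 0.01, 0.72, -0.06 and -0.26. The inhibitors ran from -0.49 for Cdkn1b to 1.20 for Cdkn2a. On all slides 6 were higher and 1 lower, against 32.6% and 21.4% of all tested genes. Without the slide block 0 passed the test (limma), and 3 had an unadjusted p under 0.05, against 14.9% of all tested genes. Cdkn2a, whose locus encodes the CDK inhibitor p16INK4a and the p53 activator Arf, had levels of -2.35, -2.27 and -2.82 in TSA and -3.58, -3.53 and -3.93 in DMSO. Every TSA array lay above every DMSO array, as for 16.4% of all tested genes, and the differences within slides 1, 2 and 3 were 1.23, 1.26 and 1.11. Its difference of 1.20 ± 0.24 missed the threshold without the block (limma, Benjamini-Hochberg adjusted p = 0.0874) and passed with the block (adjusted p = 0.0466), where 3.2% of all tested genes were called higher. With the block it was the 1 gene called among the replication pathway, G1 and mitosis genes compared, and without it there were 0. Its level lay below the 75th percentile on every array.

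Mitosis genes, a second class of proliferation genes, served for comparison. Of 25 measured, 0 rose and 0 fell, with a median of -0.06 and 0 at an unadjusted p under 0.05 (limma, against 14.9% of all tested genes). They were lower in TSA for 25 of 25 genes on slide 1 and 24 of 25 on slide 3, with medians of -0.17 and -0.13, and had a median of 0.21 on slide 2. Of all 14530 tested genes, 7641 were lower on slide 1 and 6782 on slide 3. Of the replication genes, 26 of 40 were lower on slide 1 and 20 of 40 on slide 3. Without slide 2 the mitosis genes had a median of -0.18 and a range from -0.43 to -0.02, beside the replication genes' median of -0.02. The difference between the classes was not tested.

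**Figure D4:**
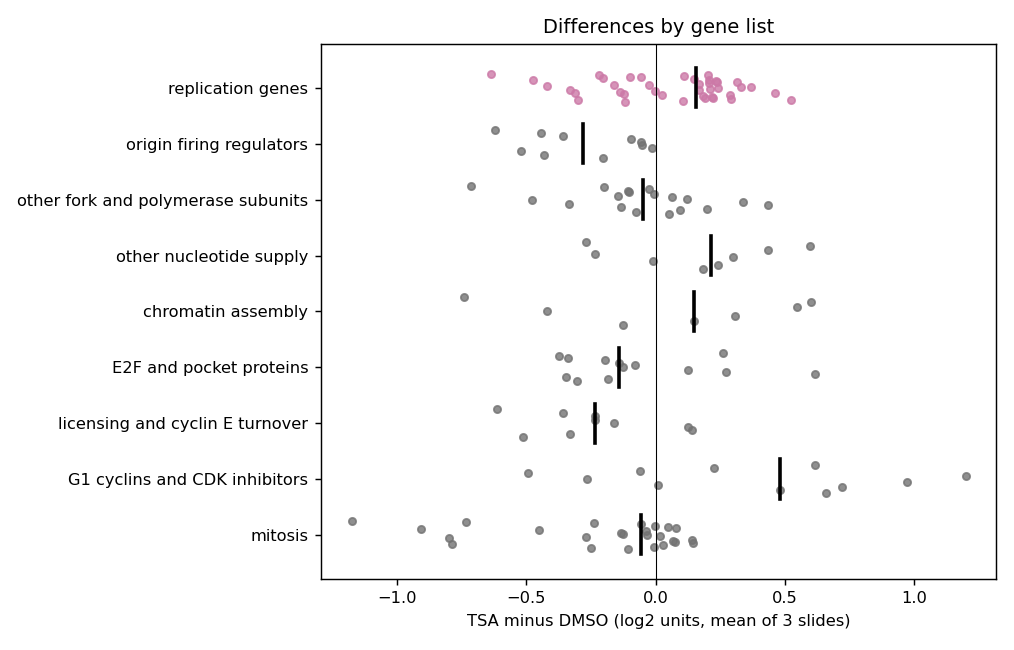
TSA minus DMSO difference in log2 units (horizontal axis, mean of 3 slides) for each measured gene of the replication genes, 6 further replication pathway lists, G1 cyclins and CDK inhibitors (with Cdk4 and Cdk6), and mitosis genes. Points are genes and black lines list medians; replication genes lie between -0.63 and 0.52 with a median of 0.16, and Cdkn2a is the highest point, at 1.20.

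Markers of the cell types that such cultures can hold were present in both groups. All 7 measured pluripotency markers and all 7 neural progenitor markers were well above background on every TSA and DMSO array, with median differences of 0.38 and 0.07 (0.55 and -0.02 without slide 2). Both lists held genes of either direction. Of the pluripotency markers 5 had a higher mean in TSA and 2 a lower one, Pou5f1 (-0.50) and Sox2 (-0.43). Of the neural progenitor markers 4 were higher and 3 lower, namely Pax6 (-1.21), Zic1 (-0.65) and Nes (-0.38). Each of these named markers was lower in TSA on all 3 slides, and 0 were called without or with the slide block. The summed signal of the 8 primitive streak markers was 14.2 to 53.8 times the 75th percentile on TSA arrays and 5.58 to 22.5 times on DMSO arrays. The highest sum of each group lay on slide 2. Their median difference was 1.48 log2 units, or 1.43 without slide 2 (0 called, 3 with the slide block). That of the 7 measured fibroblast markers was 27.9 to 77.9 times on TSA arrays and 21.7 to 35.6 times on DMSO arrays. Here too the highest sum of each group lay on slide 2. Vim had the highest level of the 7 on every array, 5.97 on TSA replicate 2, and so weighed most in these sums, with a difference of 0.46. The fibroblast median difference was 1.38, or 1.22 without slide 2 (0 called, 1 with the slide block). The fibroblast differences ran from 0.07 for Col3a1 to 2.73 for Col1a1. With the slide block, 3.2% of all tested genes were called higher in TSA and 0.145% lower. The endoderm and postmitotic neuron markers had median differences of 0.21 and 0.19 (0.11 and 0.06 without slide 2). With the slide block 1 neuron marker was called, and it ran against that median: Dcx, for a microtubule protein of young neurons, was lower in TSA, with a difference of -1.61 (limma, block adjusted p = 0.0425, and 0.383 without the block). Levels of Dcx were low, at -4.37, -5.61 and -5.80 in TSA and -2.43, -3.975 and -4.56 in DMSO. It was well above background on 5 of the 6 arrays. Of the 7 measured genes in each of these lists, 6 or 7 endoderm and 5 to 7 neuron markers were above background on TSA arrays, against 6 or 7 and all 7 on DMSO arrays. The part of cell type makeup in the values of the replication genes was not tested.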

How the data were processed

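Total RNA of 3 TSA and 3 DMSO samples was measured on single-colour arrays. Per the file headers, the deposited intensity values were written by Feature Extraction software of Agilent (release 10.7, per the submitters' processing notes), background-subtracted and detrended within an array but not scaled between arrays. The authors' deposited series table holds log2 values whose normalization is not given in the sources used here. Column medians of that table are 6.31 to 6.34, the maximum over all its columns is 19.1, and the lowest correlation with log2 of the processed signal is 0.982. It served as an alternative.

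After removal of control spots and of 57 to 84 outlier-flagged spots on each array, log2 was taken, the array's 75th percentile was subtracted and spots of a probe were averaged. Of 41174 probes, 27479 had 1 gene in the RefSeq table, 0 several and 13695 none. The 28166 probes well above background on at least 3 arrays were tested with limma 3.58.1 in R 4.3.3 (lmFit, eBayes, two-sided), checked on simulated data, with treatment as the only term and Benjamini-Hochberg adjustment. A gene takes its tested probe with the highest mean. Replicate numbers are slide numbers, and deviations from group means correlated at 0.484, 0.614 and 0.585 within slides, against -0.568 to 0.0916 between slides, which makes the replicate number a pairing, and blocked values stand where a call changes. The p-values measure the spread between samples labelled as independent experiments.

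Members and lists were chosen with earlier results of these data known. Named in full are all MCM2-7 subunits, members past the threshold, and in each role the members with the smallest p and the largest difference either way; of other lists, genes past the threshold. Alternatives were normexp (offset 50, on median spot signals) with quantile normalization, quantile normalization, median centring, the authors' table, 2 filters, the slide block, trend and robust moderation, outlier spots kept, array weights, arrays or slide 2 left out, and probe means. The array design follows mm9, so coordinates come only from the RefSeq promoter windows. Python 3.11.15 with pandas 2.3.3 summarised the tables.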

Additional observations from a re-analysis of the deposited data

How the results depend on the processing

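In each alternative run, 0 of the 40 replication genes were called, and the lowest adjusted p of any was 0.103 (limma with array weights). Unadjusted p lay under 0.05 for Rfc4 and Ccne1, both higher, under normexp, quantile normalization and the authors' table, for Orc1 (higher), Orc5 and Pold1 (lower) with array weights, and for Prim1 (higher), Orc5 and Pold1 with weights and the slide block. The median over the 40 genes ranged from -0.07 (array weights) to 0.24 (without TSA replicate 3) and was -0.05 without TSA replicate 2. The sign of a difference changed for 18 of 40 genes with array weights, 16 without TSA replicate 2, 11 with weights and block, 10 without slide 2, and 0 to 3 in the other alternatives. Over all tested genes, 205 calls became 120 with normexp, 121 with quantile normalization, 109 with median centring, 121 in the authors' table, 40 without a filter and 491 with probe means. The replicate block gave 486, array weights 1861 (1413 higher, 448 lower), weights with replicate block 2610 (2144 higher, 466 lower) and slide 2 left out 0, with 3010 genes at an unadjusted p under 0.05. Leaving out single arrays gave 0 to 461 calls: 461 without TSA replicate 2 and 0 without any of the other 5, where 1378 to 2051 genes had an unadjusted p under 0.05. The cause of these shifts was not tested. Pathway, G1 and mitosis genes had 0 calls, against 1 with the replicate block and 1 with probe means (Cdkn2a), 2 with array weights, and 5 with weights and replicate block.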

Other observations

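These 4 genes, E2f2 and Cul1 of the replication pathway and Cdkn2b and Cdkn1a of the G1 list, were picked with their values in view. Over all tested genes, 16.4% had every TSA array above every DMSO array and 8.29% had every TSA array below. E2f2, an activator E2F, had levels of 1.11, 1.29 and 0.91 in TSA and 0.54, 0.50 and 0.42 in DMSO, with every TSA array above every DMSO array. Its difference of 0.62 ± 0.20 did not pass (limma, unadjusted p = 0.0187, Benjamini-Hochberg adjusted p = 0.268). Cul1, the scaffold of the ubiquitin ligase that removes cyclin E, had levels of 0.82, 0.21 and 0.82 in TSA and 1.41, 1.07 and 1.21 in DMSO, with every TSA array below every DMSO array and a difference of -0.61 ± 0.25 (adjusted p = 0.406). Cdkn2b, the neighbour of Cdkn2a and the gene of the CDK inhibitor p15INK4b, had levels of -0.14, 0.51 and 0.63 in TSA and -0.996, -0.68 and -0.24 in DMSO, and a difference of 0.97 ± 0.31 (adjusted p = 0.255, and 0.0717 with the slide block). Cdkn1a, the gene of the CDK inhibitor p21, had levels of 2.73, 3.18 and 2.41 in TSA and 2.09, 2.38 and 1.86 in DMSO, with every TSA array above every DMSO array and a difference of 0.66 ± 0.27 (adjusted p = 0.414, and 0.141 with the block).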
